A study of Mus musculus with 32 samples.

Results

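Transcripts of 7 liver-secreted hormones, or hepatokines, were followed in livers of mice kept on short light or long light and sampled around the clock. The genes were Nrg4, Fgf21, Inhbe, Inhbc, Lect2, Fetub and Ahsg, taken as the rows of the raw count table that carry these symbols. They are 7 of 55471 annotated genes, and all 7 were among the 14456 genes that passed the filter on low counts. The livers came from 32 male mice of the inbred C3H/HeNCrl strain, all fed a high fat diet, and messenger RNA was selected by its poly-A tail. Mice were housed in a short light (SL) or a long light (LL) photoperiod, 16 mice each, and livers were taken at zeitgeber time (ZT, hours on the light schedule) 0, 6, 12 and 18. The 8 groups were therefore SL at ZT0, ZT6, ZT12 and ZT18 and LL at the same times, with 4 mice in each, so n = 4 for every group mean. The sources used here do not give the daily hours of light, the event that sets ZT0, the age of the mice or the feeding schedule. No mice on another diet were among the samples.

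Hepatokines are proteins that hepatocytes release into the blood and that act on other organs or on the liver itself. Fgf21 is induced by fasting, by amino acid shortage and by carbohydrate load, and signals through FGF receptors together with the co-receptor beta-Klotho. Nrg4 is an EGF-family ligand of the ERBB4 receptor, best known in mice as a factor of brown fat that acts on liver. Inhbe and Inhbc encode the activin E and activin C subunits of the TGF-beta superfamily, both made largely by liver. Lect2 is a chemotactic factor that rises in obesity, and Fetub and Ahsg encode the plasma fetuins, cystatin-family proteins linked to insulin resistance.

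Reads counted on genes numbered 9095615 to 27462776 per library (median 15665632). Values are given as CPM, read counts on a common library size, scaled by trimmed mean of M values factors. Mean correlation of log2 CPM with group mates lay between 0.981 and 0.989 for every library but LL ZT12 replicate 3, at 0.969, so results that turn on that library are given without it too. All 8 hepatocyte markers were present in every group, with a summed level of 107170 to 138863 CPM. None of 7 adipocyte markers passed the filter on low counts, and their sum reached 3.39 CPM at most, in LL ZT18 replicate 3, with Cfd the highest at a mean of 0.114 CPM. The 7 skeletal muscle markers summed to 0.327 to 201 CPM, the highest in LL ZT18 replicate 3, where the other LL ZT18 livers had 26.2, 59.1 and 10.4 CPM. The 6 cholangiocyte markers summed to 30.9 to 63.8 CPM, the highest in LL ZT12 replicate 3. The same library had the lowest sums of 7 endothelial markers, at 212 CPM, and of 8 stellate cell and fibroblast markers, at 215 CPM. Of 8 exocrine pancreas markers only Cela1 was tested, at a mean of 56.2 CPM, and Amy2a5 was at 0 in all libraries.

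The time courses differed between photoperiods for all hepatokines but Fetub in the interaction test given below. No difference in the mean level over the day was called. Nrg4 had the widest swing and was high in opposite parts of the ZT cycle in the 2 photoperiods. The waves fitted to Fgf21, Inhbe and Lect2 had smaller amplitudes, and the shifts of their peaks, SL minus LL on a 24 h circle, were -9.42 to -11.4 h. Time of day itself was not called for Fgf21 in either photoperiod or for Lect2 in SL. Inhbc and Ahsg passed tests with small amplitudes, and Fetub passed none. The interaction of photoperiod with ZT, a test for unequal time courses in SL and LL, was passed by 6 of the 7 hepatokines, against 32.7% of all tested genes (edgeR quasi-likelihood test, Benjamini-Hochberg adjusted p under 0.05). In the narrower test for a difference in 24 h rhythm 6 of 7 passed, against 36% of all genes. Time of day within SL was called for 3 of 7 hepatokines, against 19.1% of genes, and within LL for 4 of 7, against 18.3% of genes. These tests share the same 32 libraries and are not independent of each other. Without LL ZT12 replicate 3 the interaction was called for 5647 genes in place of 4720, and the rhythm difference for 6008 in place of 5205. Time of day was then called for 3916 genes in SL in place of 2756, and for 3093 in LL in place of 2650. The hepatokines called were then 6, 5, 4 and 4 in these tests. Ahsg left the rhythm difference (adjusted p = 0.0656) and Lect2 joined the SL course (0.00447). In the LL course Inhbc was lost (0.0572) and Fgf21 was gained (0.0371), so the equal count hides a change of genes.

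At single times, SL and LL differed for 3 of 7 hepatokines at ZT0, all 3 higher in SL, against 11% of genes. At ZT6 it was 3 of 7, with 1 higher and 2 lower in SL, against 15.3% of genes. At ZT12 it was 2 of 7, both lower in SL, against 12.4%, and at ZT18 it was 2 of 7, 1 higher and 1 lower in SL, against 9.21%. Without LL ZT12 replicate 3 the genes called were 2256 at ZT0, 3048 at ZT6, 1685 at ZT12 and 1973 at ZT18. With it they were 1596, 2208, 1799 and 1331. The hepatokines called without it were 3, 3, 3 and 2. The median absolute log2 difference over the 7 hepatokines was 0.43 at ZT0, 0.39 at ZT6, 0.29 at ZT12 and 0.19 at ZT18. Over all tested genes that median was 0.18, 0.18, 0.19 and 0.16 at these times. Averaged over the 4 times, SL and LL differed for 0 of 7 hepatokines, and the background was 0% (0 genes in edgeR, with 730 at an unadjusted p under 0.05). DESeq2 called 6 genes in that average (679 unadjusted) and limma-voom 0 (690 unadjusted). The 4 values of SL and the 4 of LL did not overlap in 14 of the 28 pairs of hepatokine and time, against 17.3% of such pairs over all tested genes. In bulk liver, fewer cells that make a transcript and less transcript per cell cannot be told apart.

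**Figure D1:**
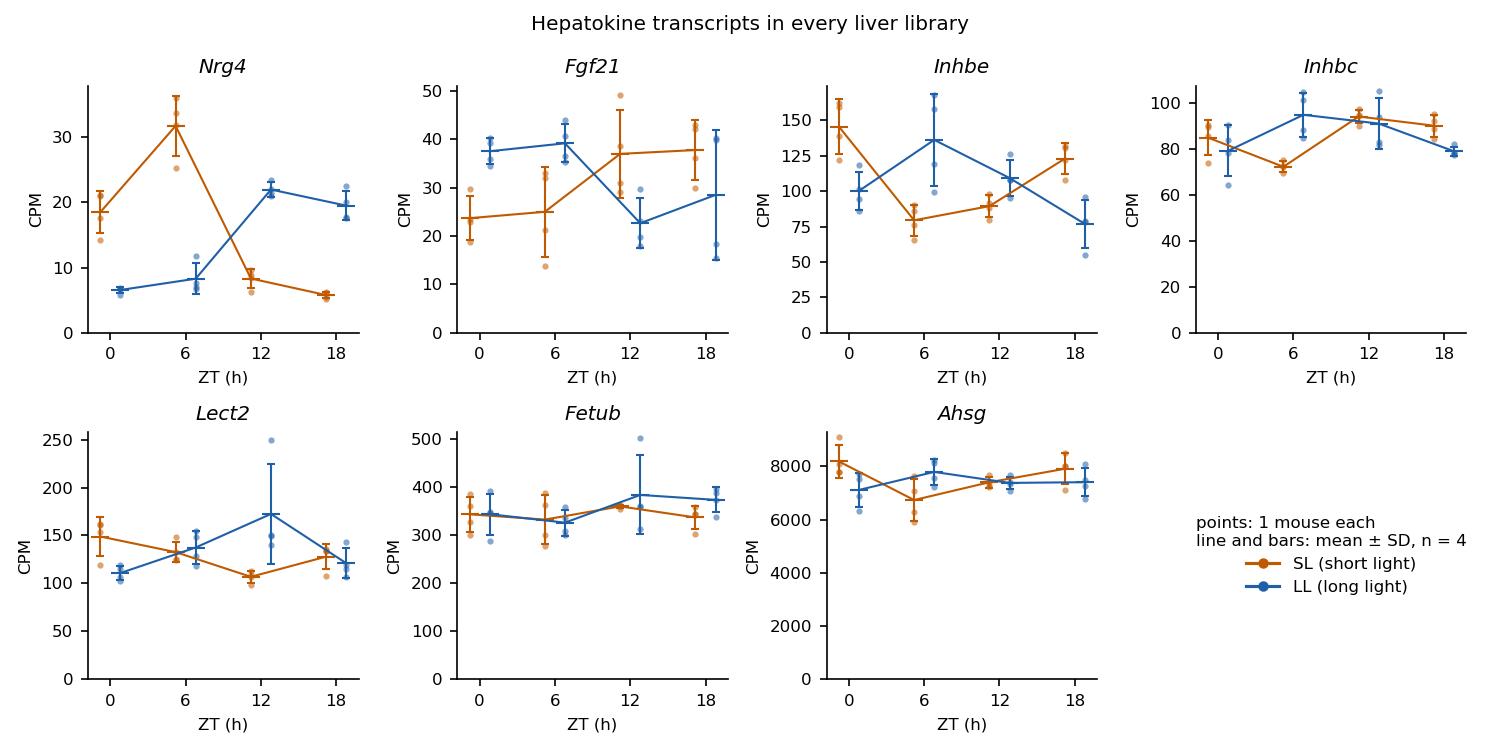
CPM of each hepatokine (y axis, from 0) at each ZT (x axis, hours) in SL (orange) and LL (blue); each point is 1 mouse, and lines with bars give the mean ± SD of 4 mice. The Nrg4 lines cross, with SL at 31.8 CPM and LL at 8.28 CPM at ZT6, while Fetub stays between group means of 326 and 384 CPM.

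Nrg4 is a membrane-anchored growth factor that is shed and activates ERBB4. The gene (ENSMUSG00000032311) lies on the minus strand at chr9:55220222-55326844 (GRCm38, GENCODE M21). In SL livers it was high at ZT0 and ZT6 and low at ZT12 and ZT18, and in LL livers low at ZT0 and ZT6 and high at ZT12 and ZT18. The window around its RefSeq start is printed because Nrg4 had the strongest photoperiod effect of the 7. It covers 250 bases before and 50 after the start at chr9:55283576-55283875, minus strand, RefSeq GRCm38.p6, and the start lies 43219 bases inside the GENCODE bounds. Capitals mark the only match among 6 searched motifs, the C/EBP letters TTGCNNAA, at position +40 from the start.
Nrg4 promoter: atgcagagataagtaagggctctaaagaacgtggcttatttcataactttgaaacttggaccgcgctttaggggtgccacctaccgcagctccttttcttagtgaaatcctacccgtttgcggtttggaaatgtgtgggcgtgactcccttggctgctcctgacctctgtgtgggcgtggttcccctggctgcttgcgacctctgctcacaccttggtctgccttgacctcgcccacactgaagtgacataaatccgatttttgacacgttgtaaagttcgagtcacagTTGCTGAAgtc
Both strands were searched in all 32817 RefSeq mouse promoter windows, and TTGCNNAA occurs in 10.8% of them. The other motifs were the E-box CACGTG (7.15% of windows), the D-box TTANNTAA (6%), the ROR element TAGGTCA (2.61%), the amino acid response element TGATGNAA (3.97%) and the HNF1 letters GTTAAT (7.1%). No match says only that these letters are not in this window, and a match is not a shown site.

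At ZT0 Nrg4 had 14.3, 20.97, 21.1 and 17.7 CPM in the SL livers, against 6.75, 5.85, 6.82 and 6.77 CPM in the LL livers. At ZT6 it had 36.0, 33.8, 25.4 and 32.0 CPM in SL livers, against 11.8, 7.60, 6.96 and 6.75 CPM in LL livers. Every SL liver was above every LL liver at both times. At ZT12 the order was turned round, with 9.67, 6.31, 8.87 and 8.38 CPM in SL livers, against 21.01, 23.5, 22.02 and 21.4 CPM in LL livers. At ZT18 it had 6.29, 5.21, 6.10 and 5.46 CPM in SL livers, against 22.5, 20.1, 17.7 and 17.8 CPM in LL livers. Here every SL liver was below every LL liver, so the photoperiods did not overlap at any time.

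The log2 difference of Nrg4, SL minus LL, was 1.496 ± 0.16 at ZT0 (SE, adjusted p = 4.33e-08) and 1.97 ± 0.15 at ZT6 (adjusted p = 1.29e-10). It was -1.40 ± 0.15 at ZT12 (adjusted p = 6.55e-08) and -1.76 ± 0.15 at ZT18 (adjusted p = 4.51e-09). The SL means were 2.83-fold and 3.84-fold those of LL at ZT0 and ZT6, and 0.378 and 0.295 of those of LL at ZT12 and ZT18. Time of day was called in both photoperiods, with an adjusted p of 9.19e-13 in SL and 1.56e-10 in LL, and the interaction had an adjusted p of 2.61e-15. The average over the day differed by only 0.08 ± 0.08 (log2, adjusted p = 0.998), with means of 16.1 CPM in SL livers and 14.1 CPM in LL livers over 16 mice each. Among the 8 group means SL ZT6 stood above all others without overlap. LL ZT12, LL ZT18 and SL ZT0 followed, and each overlapped the next in this order. A gap then separated SL ZT0 at 18.5 ± 3.24 CPM (SD) from SL ZT12 at 8.31 ± 1.43 CPM, below which LL ZT6, LL ZT0 and SL ZT18 overlapped stepwise. Counts behind these values were 62 to 630 reads per library. The gene shares 368 exonic bases with Fbxo22 and 177 with the pseudogene Gm15625, both on the opposite strand. The sources used here do not give the strand setting of the counting. Fbxo22 itself passed the interaction (adjusted p = 0.00137), with group means from 49.0 CPM in SL at ZT6 to 59.4 CPM in LL at ZT6. The part of either locus in the Nrg4 counts was not tested.

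Of 5 other EGF-family ligand genes tested, 1 passed the interaction, against 32.7% of all genes. This was Egf, at 1.17 ± 0.118 CPM in SL livers and 1.82 ± 0.350 CPM in LL livers at ZT6 (interaction adjusted p = 0.0105), while Tgfa (mean 22.2 CPM, adjusted p = 0.0825) and Btc (0.105) did not pass. Nrg2, Areg, Ereg and Epgn had 8 to 37 reads over all 32 libraries and Nrg3 had 0. Erbb4, the receptor of Nrg4, had 112 reads in all, 10 at most in a library, and was not tested. Of 7 tested ERBB receptors and feedback genes 3 passed the interaction, against 32.7% of all genes. These were Lrig1 and Lrig3, which encode negative regulators of ERBB receptors, and Errfi1, an inhibitor of EGFR kinase that is also induced by it. Errfi1 averaged 1374 ± 112 CPM in SL livers and 770 ± 100 CPM in LL livers at ZT6, and 950 ± 251 CPM in SL livers and 1275 ± 189 CPM in LL livers at ZT18 (interaction adjusted p = 0.00938). Lrig1 averaged 29.2 ± 1.68 CPM in SL livers and 40.8 ± 5.18 CPM in LL livers at ZT0, and 43.3 ± 5.67 CPM in SL livers and 26.2 ± 7.86 CPM in LL livers at ZT12 (0.000167). Egfr (mean 408 CPM, interaction adjusted p = 0.595) and Erbb3 (mean 167 CPM, 0.501), the receptors with the highest levels, did not pass.

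Fgf21 is the hormone that the liver releases on nutrient stress and that lowers sugar intake and raises fat use. The gene (ENSMUSG00000030827) lies on the minus strand at chr7:45613886-45615490. Its course went the other way from that of Nrg4, with the higher levels in SL at ZT12 and ZT18 and in LL at ZT0 and ZT6. The promoters of Fgf21 and Inhbe are shown together because both hold the letters of an amino acid response element, the site type bound by ATF4. The Fgf21 window is chr7:45615441-45615740 and the Inhbe window chr10:127351799-127352098, both minus strand, RefSeq GRCm38.p6. Capitals mark TTGCATCA, a match of TGATGNAA on the opposite strand, at position -139 in Fgf21 and -181 in Inhbe, and the E-box CACGTG at -50 in Fgf21.
Fgf21 promoter: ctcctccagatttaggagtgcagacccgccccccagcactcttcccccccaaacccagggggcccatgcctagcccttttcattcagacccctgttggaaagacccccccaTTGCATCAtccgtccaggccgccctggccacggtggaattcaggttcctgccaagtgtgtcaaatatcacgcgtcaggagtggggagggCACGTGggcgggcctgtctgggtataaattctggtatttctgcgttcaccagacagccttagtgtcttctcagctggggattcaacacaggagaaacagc
Inhbe promoter: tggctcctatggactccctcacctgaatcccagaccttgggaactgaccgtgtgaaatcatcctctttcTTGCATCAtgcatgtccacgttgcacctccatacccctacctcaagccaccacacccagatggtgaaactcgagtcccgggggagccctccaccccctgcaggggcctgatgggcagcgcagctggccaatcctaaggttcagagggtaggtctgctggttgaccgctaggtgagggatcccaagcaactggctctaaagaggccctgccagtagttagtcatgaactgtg
The RefSeq start of Fgf21 is the GENCODE gene start, and that of Inhbe lies 2563 bases inside the GENCODE bounds. Of the 8 windows of the 7 hepatokines, the remaining matches were C/EBP letters in Ahsg at -32 and HNF1 letters in Lect2 at -78, while the windows of Inhbc and Fetub had none.

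At ZT0 Fgf21 had 18.7, 22.8, 29.7 and 23.5 CPM in SL livers, against 35.9, 39.2, 40.3 and 34.5 CPM in LL livers. At ZT6 it had 21.1, 33.1, 32.0 and 13.7 CPM in SL livers, against 36.6, 44.0, 40.7 and 35.4 CPM in LL livers. All SL livers were below all LL livers at these times. At ZT12 it had 30.8, 38.7, 29.1 and 49.2 CPM in SL livers, against 23.1, 19.9, 29.6 and 17.9 CPM in LL livers, where 1 LL liver, replicate 3, was above the lowest SL liver. At ZT18 it had 36.0, 43.0, 29.8 and 42.2 CPM in SL livers, against 18.4, 15.4, 40.3 and 39.8 CPM in LL livers. The LL ZT18 livers fell apart into 2 low and 2 high values and overlapped the SL livers.

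No single time was called for Fgf21 in the fit over all libraries. The log2 difference, SL minus LL, was -0.67 ± 0.26 at ZT0 (adjusted p = 0.0987) and -0.65 ± 0.25 at ZT6 (0.0805). It was 0.71 ± 0.25 at ZT12 (0.0630) and 0.41 ± 0.25 at ZT18 (0.376). The interaction was called (adjusted p = 0.00316), as was the difference in 24 h rhythm (0.00121), while the time courses within SL (0.0736) and within LL (0.0654) missed the threshold. Without LL ZT12 replicate 3 the difference at ZT12 was 0.88 with an adjusted p of 0.0345. That call was also made without SL ZT6 replicate 4 (0.0431), without LL ZT18 replicate 2 (0.0434) and by DESeq2 (0.0398), and the call at ZT6 without SL ZT6 replicate 2 (0.0481) and by limma-voom (0.0459). Without SL ZT6 replicate 4 the difference at ZT6 was -0.43 with an adjusted p of 0.289. Without the filter on low counts the calls were made at ZT0 (0.0314), ZT6 (0.0307) and ZT12 (0.0183) and for the time courses within SL (0.00793) and within LL (0.00883). At ZT0 the fit on those 8 libraries alone gave an adjusted p of 0.00519. DESeq2 called time of day for both photoperiods, with an adjusted p of 0.0412 for SL and 0.0359 for LL. The SL course was also called in the SL livers alone (0.0490) and without SL ZT6 replicate 2 (0.0490) or LL ZT18 replicate 2 (0.0462). The LL course was called by limma-voom (0.0466), on the authors' log2 values (0.0480) and without SL ZT6 replicate 4 (0.0435), LL ZT12 replicate 3 (0.0371), LL ZT18 replicate 3 (0.0407) or LL ZT18 replicate 4 (0.0384). Of the 32 fits that left out 1 library, only 2 called the SL course and 4 the LL course. The adjusted p rose to 0.153 for SL without SL ZT0 replicate 1 and to 0.153 for LL without LL ZT12 replicate 2. In these fits it rose to 0.269 at ZT0 and to 0.225 at ZT12. Without LL ZT18 replicate 3, the liver with the most muscle transcripts, the difference at ZT18 was 0.61 (adjusted p = 0.196), and without LL ZT18 replicate 2 it was 0.19 (0.763). The group means ran from 39.1 ± 3.92 CPM in LL ZT6 to 22.6 ± 5.16 CPM in LL ZT12, and every neighbour in that order overlapped the next.

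Of 9 tested FGF21 receptors and FGF response genes 6 passed the interaction, against 32.7% of all genes. Of the 9 the time course was called for 4 in SL, against 19.1% of genes, and for 3 in LL, against 18.3%. Fgfr4, the main FGF receptor of hepatocytes, averaged 59.1 ± 3.56 CPM in SL livers and 73.0 ± 7.10 CPM in LL livers at ZT0, and 80.6 ± 4.03 CPM in SL livers and 66.5 ± 3.56 CPM in LL livers at ZT18 (interaction adjusted p = 6.84e-08). Klb, which encodes beta-Klotho, averaged 44.9 ± 12.4 CPM in SL livers and 25.8 ± 4.05 CPM in LL livers at ZT0 (interaction adjusted p = 0.0171). Fgfr1, the receptor through which FGF21 acts in fat, was at 6.10 CPM on average and did not pass (0.0963). Fgf1, a related ligand, averaged 234 ± 32.2 CPM in SL livers and 122 ± 18.0 CPM in LL livers at ZT6 (4.91e-09).

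Of 16 tested regulators of Fgf21 transcription 9 passed the interaction (32.7% of all genes), 8 were called in SL (19.1%) and 5 in LL (18.3%). The smallest p belonged to the clock repressors Nr1d1 (2.28e-14) and Nfil3 (8.81e-11), to the nutrient-responsive factor Klf15 (5.37e-08) and to Xbp1, a factor of the unfolded protein response (0.00112). Nfil3 averaged 19.8 ± 4.04 CPM in SL livers and 54.8 ± 4.97 CPM in LL livers at ZT0, and 53.6 ± 2 CPM in SL livers and 24.8 ± 1.95 CPM in LL livers at ZT12. Ppara, the fasting regulator of Fgf21, averaged 256 ± 26.6 CPM in SL livers and 194 ± 29.5 CPM in LL livers at ZT0 (interaction adjusted p = 0.0369). Creb3l3, its partner in liver, had a mean of 362 CPM and did not pass (0.0830).

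Of 12 tested genes of the integrated stress response 5 passed the interaction (32.7% of all genes), 5 were called in SL (19.1%) and 3 in LL (18.3%). Atf4, the factor that binds amino acid response elements, averaged 79.2 ± 19.7 CPM in SL livers and 119 ± 25.3 CPM in LL livers at ZT6, and 119 ± 9.71 CPM in SL livers and 97.2 ± 10.7 CPM in LL livers at ZT18 (interaction adjusted p = 0.00340). Atf5, a related factor, averaged 250 ± 18.5 CPM in SL livers and 459.5 ± 59.5 CPM in LL livers at ZT6, and 506 ± 43.9 CPM in SL livers and 324 ± 20.5 CPM in LL livers at ZT18 (1.45e-09). Peaks of the 24 h waves were at 16.2 h (SL livers) and 2.51 h (LL livers) for Atf5, and at 15.1 h (SL livers) and 2.53 h (LL livers) for Fgf21. For Inhbe they were at 21.2 h (SL livers) and 6.59 h (LL livers). The time course of Fgf21 was not called in SL or in LL, and a link between these genes was not tested. Trib3, an ATF4 target, had its peak at 23.9 h for SL and 7.19 h for LL (interaction adjusted p = 0.0108), and Asns, another target, was at 2.04 CPM on average and did not pass (0.827).

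**Figure D2:**
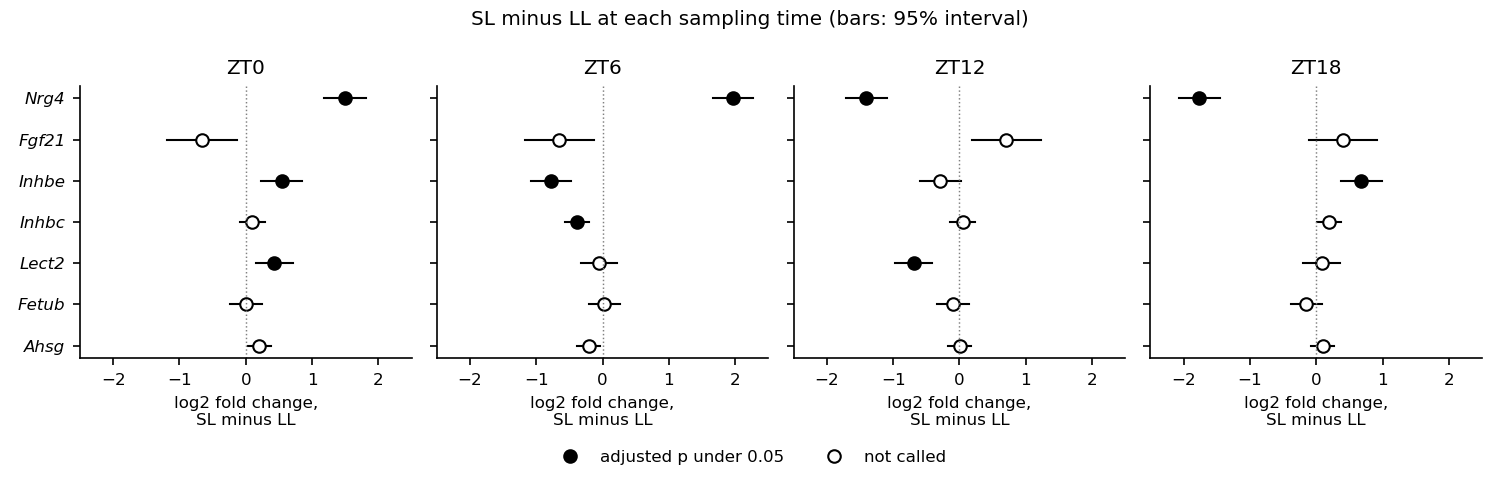
Log2 difference, SL minus LL, of each hepatokine (rows) at each ZT (panels); bars are 95% intervals from the fit over all genes, and filled points have an adjusted p under 0.05. Nrg4 is to the right of 0 at ZT0 and ZT6 and to the left at ZT12 and ZT18; Fgf21 lies on the opposite side each time with open points.

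Inhbe and Inhbc are neighbours on chromosome 10, both on the minus strand, with 1910 bases and no other protein-coding gene between them. Inhbe (ENSMUSG00000047492, chr10:127348857-127354411) encodes the activin E subunit, which in humans and mice limits fat breakdown in adipose tissue. It was high in SL at ZT0 and ZT18 and in LL at ZT6. At ZT0 it had 139, 160, 122 and 163 CPM in SL livers, against 102, 86.0, 94.5 and 118 CPM in LL livers. At ZT6 it had 90.1, 86.1, 76.2 and 65.2 CPM in SL livers, against 158, 168, 119 and 99.7 CPM in LL livers. All SL livers were above all LL livers at ZT0 and below all of them at ZT6. At ZT12 it had 79.8, 88.0, 97.9 and 91.9 CPM in SL livers, against 108, 126, 108 and 95.2 CPM in LL livers, with overlap in 1 LL liver. At ZT18 it had 108, 122, 130 and 132 CPM in SL livers, against 78.1, 54.7, 78.9 and 95.7 CPM in LL livers, again without overlap.

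The log2 difference of Inhbe, SL minus LL, was 0.54 ± 0.15 at ZT0 (adjusted p = 0.0168), -0.78 ± 0.15 at ZT6 (4.19e-04), -0.29 ± 0.15 at ZT12 (0.223) and 0.68 ± 0.15 at ZT18 (0.00313). Both SL (1.30e-04) and LL (0.00154) gave a call for time of day, and the interaction had an adjusted p of 3.59e-06. The call at ZT0 was lost without SL ZT0 replicate 2 (adjusted p = 0.0504), without SL ZT0 replicate 4 (0.0580) and without LL ZT0 replicate 2 (0.0670). Without LL ZT18 replicate 3 the difference at ZT18 was 0.68 (0.0111).

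Inhbc (ENSMUSG00000025405, chr10:127356322-127370431) encodes the activin C subunit and moved less than its neighbour. At ZT6 it had 72.1, 72.3, 69.3 and 75.1 CPM in SL livers, against 105, 101.2, 88.4 and 84.8 CPM in LL livers. No SL liver reached the lowest LL liver at that time, and the log2 difference was -0.39 ± 0.09 (adjusted p = 0.00231). At ZT18 it had 88.6, 92.2, 84.2 and 95.2 CPM in SL livers, against 77.2, 82.0, 78.3 and 78.1 CPM in LL livers. The ZT18 values did not overlap either, but the difference of 0.19 ± 0.09 was not called (0.204). At ZT0 the means were 84.8 ± 7.52 CPM in SL livers and 79.1 ± 11.1 CPM in LL livers, and at ZT12 94.1 ± 2.95 CPM in SL livers and 91.0 ± 10.99 CPM in LL livers, with overlap at both times. The interaction was called (0.00223), as was time of day in SL (0.0102). Time of day in LL had an adjusted p of 0.0484, which rose above the threshold in 26 of the 32 fits that left out 1 library, to 0.119 without LL ZT6 replicate 1, and to 0.227 in the fit on the LL livers alone. An antisense locus, Gm47200, overlaps both genes on the opposite strand. It shares 268 exonic bases with Inhbc and 0 with Inhbe, and its part in the Inhbc counts was not tested.

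Of 12 other tested activin and inhibin genes 4 passed the interaction, against 32.7% of all genes. Inhba, the activin A subunit, averaged 31.5 ± 8.50 CPM in SL livers and 12.0 ± 4.75 CPM in LL livers at ZT12, and 14.5 ± 4.63 CPM in SL livers and 27.1 ± 3.57 CPM in LL livers at ZT0 (interaction adjusted p = 7.43e-05). Fst, which encodes the activin antagonist follistatin, averaged 3.90 ± 1.10 CPM in SL livers and 7.53 ± 1.51 CPM in LL livers at ZT0 (0.00130). Acvr1b, a type I activin receptor, averaged 21.9 ± 3.72 CPM in SL livers and 16.69 ± 1.80 CPM in LL livers at ZT0 (0.0127). Inha, Acvr1c, the receptor through which activin E acts on fat cells, and Fstl3 had 83, 42 and 26 reads over all libraries and were not tested.

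Lect2 (ENSMUSG00000021539, chr13:56542464-56548502, minus strand) encodes a hepatocyte protein that binds the receptors Met and Tie1. It was higher in SL at ZT0 and lower in SL at ZT12. At ZT0 it had 162, 119, 160 and 154 CPM in SL livers, against 103, 106, 119 and 115 CPM in LL livers. At ZT12 it had 109, 113, 98.5 and 107 CPM in SL livers, against 149, 140, 250 and 150 CPM in LL livers. The photoperiods did not overlap at ZT0, where the lowest SL liver was just above the highest LL liver, nor at ZT12. At ZT6 the means were 133 ± 10.8 CPM in SL livers and 137 ± 16.9 CPM in LL livers, and at ZT18 128 ± 13.4 CPM in SL livers and 121 ± 15.5 CPM in LL livers, with overlap.

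The log2 difference of Lect2, SL minus LL, was 0.43 ± 0.14 at ZT0 (adjusted p = 0.0368) and -0.69 ± 0.14 at ZT12 (6.02e-04). The interaction was called (2.67e-04), as was time of day in LL (0.00352), and time of day in SL was not (0.0620). The value of 250 CPM belongs to LL ZT12 replicate 3, the library that stood apart. Without it the difference at ZT12 was -0.45 (adjusted p = 0.00417), the interaction had an adjusted p of 1.80e-04, and SL (0.00447) as well as LL (0.0172) gave a call for time of day. The SL course was also called without SL ZT0 replicate 2 (0.0247), by DESeq2 (0.0426), without the filter on low counts (0.0455) and in the SL livers alone (0.00851). Only 2 of the 32 fits that left out 1 library called it, and its adjusted p rose to 0.182 without SL ZT12 replicate 3. The fit on the 8 ZT12 libraries alone gave an adjusted p of 0.0535 at ZT12. At ZT0 the call was lost in 6 of the 32 fits that left out 1 library, with adjusted p-values of 0.112, 0.0968 and 0.0797 without SL ZT0 replicate 1, 3 or 4, and of 0.110, 0.0871 and 0.0590 without LL ZT0 replicate 1, 2 or 4. Of 4 tested receptor genes and partners of LECT2, 1 passed the interaction, against 32.7% of all genes. This was the endothelial receptor gene Tek (0.000865), with 17.6 ± 0.780 CPM in SL livers and 12.4 ± 3.26 CPM in LL livers at ZT12. At that time the 7 endothelial markers summed to 319 to 366 CPM in SL livers and 212 to 315 CPM in LL livers, and 4 of the 7 were called higher in SL, against 12.4% of genes called in either direction. Their part in the Tek value was not tested. Met (mean 110 CPM, 0.373) and Tie1 (0.189) did not.

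Fetub and Ahsg sit side by side on chromosome 16, on the plus strand and 18884 bases apart. Ahsg (ENSMUSG00000022868, chr16:22891277-22899449) encodes fetuin-A, an abundant carrier of calcium phosphate that inhibits the insulin receptor in rodents. It was the 8th most abundant of all tested transcripts. At ZT0 Ahsg had 9114, 8076, 7773 and 7782 CPM in SL livers, against 6303, 7719, 7542 and 6887 CPM in LL livers. At ZT6 it had 6293, 7068, 5926 and 7647 CPM in SL livers, against 7216, 7565, 8249 and 8133 CPM in LL livers. The ZT0 values did not overlap and the ZT6 values did. The log2 difference of 0.20 ± 0.08 at ZT0 was not called (adjusted p = 0.125), nor was that of -0.21 ± 0.08 at ZT6 (0.0897), which was called without SL ZT6 replicate 4 (-0.26, 0.0451). At ZT12 the means were 7403 ± 201 CPM in SL livers and 7378 ± 241 CPM in LL livers, and at ZT18 7908 ± 589 CPM in SL livers and 7404 ± 537 CPM in LL livers.

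The interaction for Ahsg was called at an adjusted p of 0.0372 and the rhythm difference at 0.0462, both close to the threshold. Of the 32 fits that left out 1 library, 11 lost the interaction, with adjusted p-values up to 0.0991 without SL ZT6 replicate 3, and 21 lost the rhythm difference, with values up to 0.0998 without LL ZT18 replicate 2. The interaction was also lost with DESeq2 size factors (0.0524), without the filter on low counts (0.206), with a stricter filter (0.0516) and on the authors' log2 values (0.0760). Neither SL (0.0580) nor LL (0.637) gave a call for time of day, but the SL course was called by DESeq2 (0.0289), by limma-voom (0.0415) and without SL ZT6 replicate 4 (0.0315) or SL ZT18 replicate 2 (0.0383). The other fits that left out 1 library did not call it, with an adjusted p up to 0.213 without SL ZT6 replicate 3.

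Fetub (ENSMUSG00000022871, chr16:22918334-22939778) encodes fetuin-B, a protease inhibitor needed for fertilization in mice. It gave no call in any comparison, with adjusted p-values of 0.885 for time of day in SL, 0.355 in LL and 0.775 for the interaction. Its group means were 344, 333, 360 and 337 CPM in SL and 344, 326, 384 and 374 CPM in LL at ZT0, ZT6, ZT12 and ZT18. Single livers ran from 277 to 388 CPM in SL and from 289 to 503 CPM in LL, the highest again LL ZT12 replicate 3. The intervals of the SL minus LL difference were -0.24 to 0.24 at ZT0, -0.21 to 0.27 at ZT6, -0.33 to 0.15 at ZT12 and -0.39 to 0.09 at ZT18 (95%, log2). Of 9 tested fetuin targets and cystatin-family relatives 3 passed the interaction, against 32.7% of all genes. These were the insulin receptor substrates Irs2 (0.000817) and Irs1 (0.0430) and the plasma protein gene Hrg (0.0158), while the insulin receptor gene Insr, the target of fetuin-A, did not pass (0.277). At ZT6 the median log2 difference, SL minus LL, was -0.50 over the 5 EGF-family ligands, 0.08 over the 7 ERBB receptors and feedback genes and -0.24 over the 9 FGF receptor and response genes. It was 0.15 over the 16 regulators of Fgf21, -0.13 over the 12 stress response genes, -0.04 over the 12 activin genes, 0.13 over the 4 LECT2 receptor genes and 0.08 over the 9 fetuin targets and relatives. Over all tested genes it was -0.01. These medians hold for ZT6 only. At ZT0, ZT12 and ZT18 they were -0.06, 0.31 and 0.26 for the EGF-family ligands, and 0.38, 0.13 and 0.03 for the FGF receptor and response genes.

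A 24 h wave was fitted to each hepatokine from the 4 times. The Nrg4 wave had a log2 amplitude of 1.34 ± 0.08 in SL and 1.07 ± 0.08 in LL (SE), a difference of 0.27 ± 0.11. The median amplitude over all tested genes was 0.14 in SL and 0.15 in LL. Fgf21 had 0.46 ± 0.14 in SL and 0.48 ± 0.14 in LL, and Inhbe 0.47 ± 0.08 in SL and 0.42 ± 0.08 in LL. Amplitudes of Lect2 were 0.24 ± 0.07 in SL and 0.31 ± 0.07 in LL, and those of Inhbc 0.18 ± 0.04 in SL and 0.17 ± 0.04 in LL. For Ahsg they were 0.14 ± 0.04 in SL and 0.05 ± 0.04 in LL, and for Fetub 0.04 ± 0.06 in SL and 0.12 ± 0.06 in LL. The hepatokines thus ranged from far above to below the median gene.

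In SL Lect2 peaked at 0.447 ± 1.13 h (SE), Nrg4 at 4.32 ± 0.220 h, Fgf21 at 15.1 ± 1.17 h, Inhbc at 16.3 ± 0.958 h, Ahsg at 20.1 ± 1.05 h and Inhbe at 21.2 ± 0.653 h. In LL Fgf21 peaked at 2.53 ± 1.13 h, Inhbe at 6.59 ± 0.742 h, Inhbc at 8.56 ± 1.02 h, Lect2 at 10.9 ± 0.852 h and Nrg4 at 14.4 ± 0.276 h. Differences in peak time between hepatokines were not tested, and some neighbours, such as Fgf21 and Inhbc in SL, lie within their errors. The waves of Ahsg in LL and of Fetub in SL had amplitudes near their SE, and their peaks were at 8.50 ± 3.10 h and 13.5 ± 5.76 h. Fetub peaked at 15.6 ± 1.87 h in LL. The shift of the peak, SL minus LL on a 24 h circle, was -10.1 ± 0.352 h for Nrg4, -11.4 ± 1.63 h for Fgf21, -9.42 ± 0.989 h for Inhbe and -10.4 ± 1.41 h for Lect2. For Inhbc it was 7.73 ± 1.401 h, for Ahsg 11.6 ± 3.27 h and for Fetub -2.13 ± 6.06 h. On the circle a shift of 12 h has no sign, and that of Ahsg reaches it within its error. With samples 6 h apart, the 24 h wave cannot be told apart from one of another period or from a sharp peak.

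**Figure D3:**
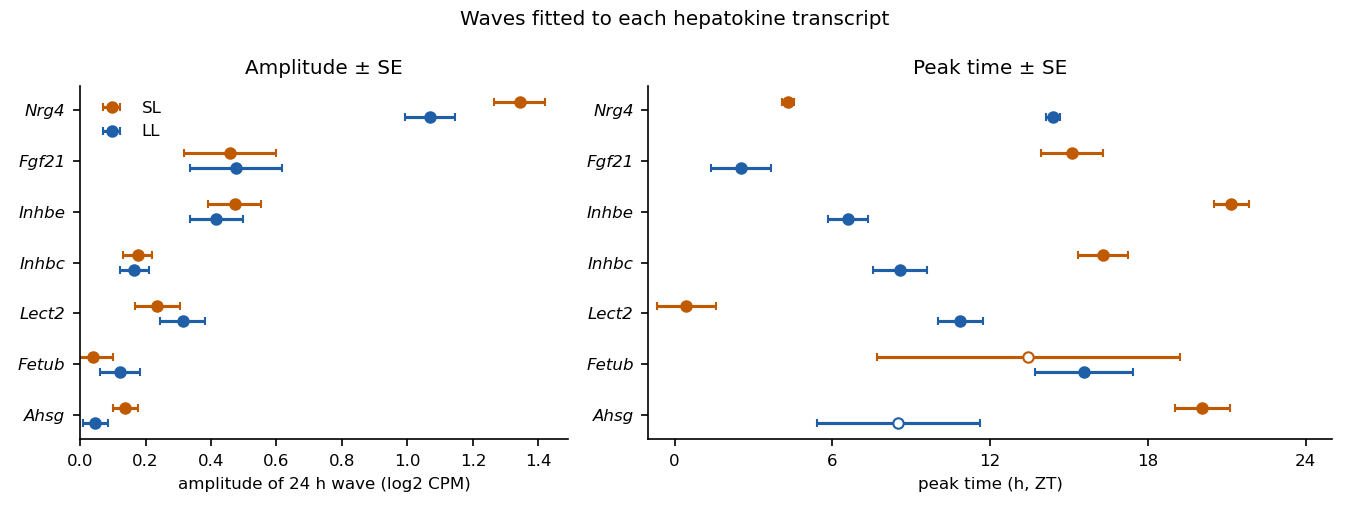
Amplitude (left, log2 CPM) and peak time (right, hours of ZT) of the 24 h wave of each hepatokine in SL (orange, upper) and LL (blue, lower), with bars of 1 SE; open circles mark waves with an amplitude under 2 SE. Nrg4 has amplitudes of 1.34 in SL and 1.07 in LL with peaks at 4.32 h and 14.4 h, and the peak of Fetub in SL carries an SE of 5.76 h.

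Each SL group was next set against the LL group sampled 12 h later on the ZT scale. Values then did not overlap in 4 of the 28 pairs, against 4.55% of pairs over all tested genes. The test asked whether SL minus shifted LL changed over the 4 pairs of times. A difference of the same size in all pairs would not be called. It was passed by 1 of the 7 hepatokines, against 0.519% of genes (75 genes, and 151 without LL ZT12 replicate 3). That a shift of this size aligns many liver transcripts was known when the offset was chosen. Nrg4 was the hepatokine that passed (adjusted p = 0.00420). Its mean was 31.8 ± 4.58 CPM in SL at ZT6 and 19.5 ± 2.26 CPM in LL at ZT18, a ratio of 1.63 without overlap. At the other end it was 5.77 ± 0.512 CPM in SL at ZT18 and 8.28 ± 2.38 CPM in LL at ZT6, a ratio of 0.696, also without overlap. For Fgf21 the adjusted p was 0.977, for Lect2 0.811, for Fetub 0.797, for Ahsg 0.651, for Inhbe 0.451 and for Inhbc 0.361. The other pairs without overlap were of Inhbc and Ahsg. Inhbc averaged 72.2 CPM in SL at ZT6 and 78.9 CPM in LL at ZT18. Ahsg averaged 8186 CPM in SL at ZT0 and 7378 CPM in LL at ZT12. Inhbe had 146 ± 19.1 CPM in SL at ZT0 and 109 ± 12.7 CPM in LL at ZT12, its largest remaining gap, with a ratio of 1.33 and overlapping values.

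**Figure D4:**
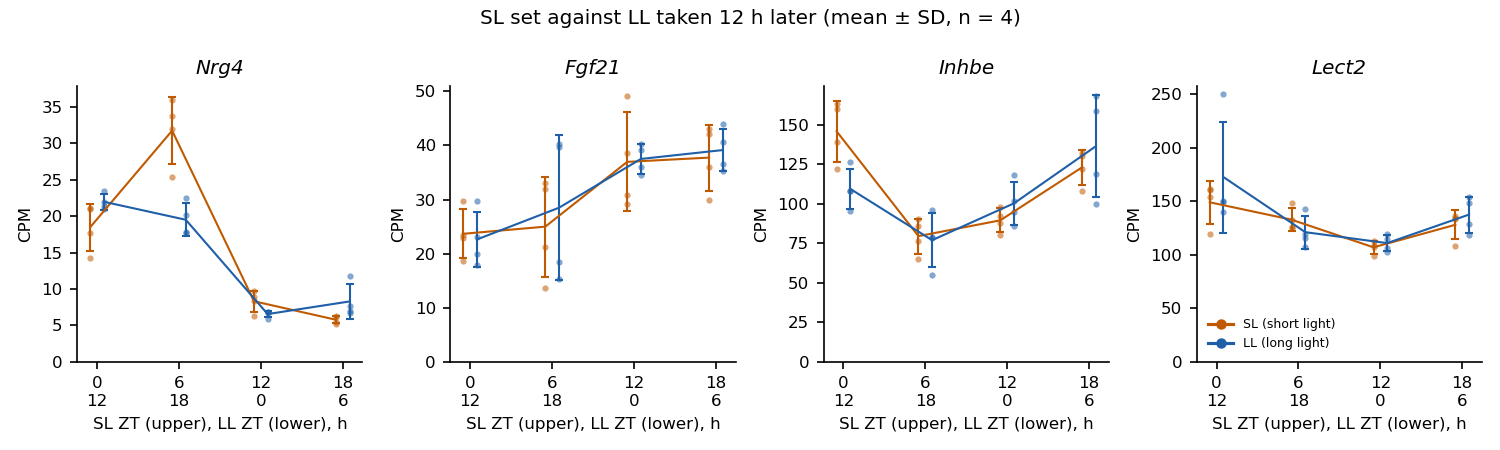
CPM of Nrg4, Fgf21, Inhbe and Lect2 with each SL group (orange, upper ZT on the x axis) beside the LL group taken 12 h later (blue, lower ZT); points are mice, lines with bars the mean ± SD of 4 mice. The Fgf21 and Lect2 lines lie close to each other, while Nrg4 at SL ZT6 stands at 31.8 CPM against 19.5 CPM at LL ZT18.

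Per kilobase of exon, mean levels over the 32 livers spanned from 2.48 ± 1.5 CPM per kb (SD) for Nrg4 to 3409 ± 296 CPM per kb for Ahsg. In between were Inhbe at 20.2 ± 5.40, Fgf21 at 33.0 ± 9.99, Inhbc at 46.1 ± 5.47, Lect2 at 144 ± 30.7 and Fetub at 178 ± 21.6 CPM per kb. The highest liver was 1.54-fold the lowest for Ahsg, 1.64-fold for Inhbc, 1.81-fold for Fetub, 2.54-fold for Lect2, 3.08-fold for Inhbe, 3.59-fold for Fgf21 and 6.91-fold for Nrg4. Nrg4 and Fgf21 ran opposite to each other over the 32 libraries, with a Pearson r of log2 CPM of -0.68 and a Spearman rho of -0.66. Within groups that r was -0.24. The neighbours Fetub and Ahsg had an r of 0.47 and a rho of 0.34, and an r of 0.75 within groups, while Inhbe and Inhbc had an r of 0.38 and a rho of 0.38, and an r of 0.02 within groups. These are descriptions over libraries that share the 8 group means, and library quality was not separated from them.

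The genes whose log2 CPM ran most like Nrg4 over the 32 libraries were Por (r = 0.96), Nampt (0.95) and Usp2 (0.95), with peaks at 4.89, 4.37 and 4.08 h for SL and 14.6, 14.5 and 14.7 h for LL. For Fgf21 they were Hes1 (0.78), Pla2g12b (0.72) and Lpl (0.70), and for Inhbe they were Klhdc7a (0.81), Hdac11 (0.81) and Rnf43 (0.80). Inhbc ran most like Tfg (0.80), Tmem214 (0.77) and E2f2 (0.75). Lect2 was nearest to Apof (0.87), Psmc3 (0.85) and Alad (0.83), Fetub to Scnn1a (0.86), Kng1 (0.81) and Ccs (0.80), and Ahsg to Serpina11 (0.82), Gjb1 (0.82) and Hsd3b5 (0.80). The closest match of the strongly timed Nrg4 was tighter than that of any other hepatokine.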

How the data were processed

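Per the labels' protocols, libraries of poly-A selected liver RNA were made with a stranded mRNA kit. The submitters' processing notes name featureCounts 1.6.2, STAR 2.7.2b and bcl2fastq 2.20.0 and the build mm10 (GRCm38). The sources used here do not give the strand setting, the annotation or the treatment of reads with several matches. For 55471 genes the authors deposited whole-number read counts per gene without normalization. The authors also deposited log2 values for 13432 genes, which differed by at most 0.0213 from log2 CPM computed here and served as an alternative and for gene symbols.

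Genes were kept with filterByExpr by group and scaled by the trimmed mean of M values, and 14456 went into the quasi-likelihood test of edgeR 4.0.16 (R 4.3.3). The fit used the 32 libraries and 1 mean for each of the 8 groups, without covariates. Benjamini-Hochberg adjustment ran over all 14456 genes, and a call is an adjusted p under 0.05. CPM are linear values, and log2 CPM used a prior count of 2. With 4 times 6 h apart, ZT0 minus ZT12 and ZT6 minus ZT18 give the 24 h wave. Standard errors of waves come from the spread of log2 CPM within groups. Gene bounds came from GENCODE M21 on GRCm38, and promoter windows of 300 bases from RefSeq on GRCm38.p6, with a window for all 7 hepatokines.

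Each library is its own mouse per the labels, and the spread behind each p-value is that between mice. None of 48 pairs of group mates agreed within counting noise (chi-square per degree of freedom 6.19 or more). The hepatokines, the gene lists and the offset of 12 h were chosen with earlier results of these data known. All 7 hepatokines are named, and of each list the 2 to 4 genes with the smallest interaction p at a mean of at least 1 CPM, plus receptors and regulators of high level or known role whatever their p. The most similar genes are the 3 with the highest Pearson r, leaving out unnamed loci. The alternatives were size factors of DESeq2 1.42.0, its own test, limma-voom (limma 3.58.1), limma on the authors' log2 values, no filter, a stricter filter (1 CPM in 4 libraries), fits on the compared groups alone, a block for the replicate number, and leaving out every library in turn. The procedure was run on simulated counts with waves added to some genes. Waves as small as those of the hepatokines other than Nrg4 were not simulated. Totals of 9095615 reads or more put at least 62 reads behind every value of a hepatokine.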

Additional observations from a re-analysis of the deposited data

Results flagged for a closer look

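Each hepatokine was checked for a liver that stood apart from its 3 group mates (Dixon's test, CPM), and 4 of 56 groups held one, where chance gives about 1 in 20 groups. Nrg4 in LL at ZT0 replicate 2 was low at 5.85 CPM, and in LL at ZT6 replicate 1 was high at 11.8 CPM. Lect2 in SL at ZT18 replicate 1 was low at 108 CPM, and in LL at ZT12 replicate 3 was high at 249.98 CPM. The last is the library with the lowest correlation with its group mates, and it also held the highest Fetub value, the highest sum of cholangiocyte markers (63.8 CPM) and the lowest sums of endothelial (212 CPM) and of stellate cell and fibroblast markers (215 CPM). Their part in the Lect2 value was not tested. The time course differed between SL and LL by the interaction test of edgeR for 6 of the 7 hepatokines. The adjusted p was 2.61e-15 for Nrg4, 3.59e-06 for Inhbe, 2.67e-04 for Lect2, 0.00223 for Inhbc, 0.00316 for Fgf21 and 0.0372 for Ahsg.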

How the results depend on the processing

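The interactions of Nrg4, Fgf21, Inhbe, Inhbc and Lect2 kept their call in every alternative run. All 4 single-time differences of Nrg4 kept both their direction and their call. With 1 library left out, 4 wave values moved by more than 1 SE. The LL amplitude was 0.22 for Lect2 without LL ZT12 replicate 3, against 0.31, and 0.33 for Inhbe without LL ZT18 replicate 2, against 0.42. The LL peak was 17.8 h for Fetub without LL ZT12 replicate 3, against 15.6 h, and 7.51 h for Inhbc without LL ZT0 replicate 3, against 8.56 h. Time of day in SL was called for 6 hepatokines by DESeq2 and for 5 without the filter or in the SL livers alone, against 3. In fits on the compared groups alone, time of day in LL was called for 1655 genes in place of 2650, and ZT12 for 723 genes in place of 1799 and for 1 hepatokine in place of 2. The mean over the day gave 6 genes by DESeq2 and 9 without the filter, against 0, and the offset of 12 h gave 228 and 250, against 75. The causes were not tested. Leaving out 1 library gave 1 to 3 hepatokines at ZT0 (1 without SL ZT0 replicate 4 or LL ZT0 replicate 2), 0 to 3 genes in the mean and 55 to 151 genes at the offset, 151 without LL ZT12 replicate 3. Differences near 0 changed sign and were not called in any fit. Fetub at ZT0, at -0.000914 (log2), was 0.000737 with DESeq2 size factors, 0.000738 by DESeq2 and 0.00134 by limma-voom, and Ahsg at ZT12, at 0.0050, was -0.00776 without the filter. With 1 library left out, Fetub ranged from -0.0762 to 0.0700 at ZT0, -0.0391 to 0.105 at ZT6 and -0.179 to 0.0680 at ZT12, Lect2 at ZT6 from -0.118 to 0.00907, Inhbc at ZT12 from -0.000742 to 0.125 and Ahsg at ZT12 from -0.0142 to 0.0277. In the mean over the day Fgf21 ranged from -0.100 to 0.00409, Inhbc from -0.0351 to 0.00600 and Lect2 from -0.0801 to 0.00173.

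Same-numbered libraries had a mean correlation of deviations of -0.000292, from -0.263 to 0.243, and 17 of 112 pairs were over 0.1. The mean over 336 pairs with different numbers was 9.09e-05, and their share over 0.1 was not counted. Deviations were taken from group means, so this mean is tied to that of same-numbered pairs and is no independent baseline. A mean near 0 cannot settle whether replicate numbers pair some of the samples. With the replicate number as a block, time of day in LL was called for 3 hepatokines and the rhythm difference for 5, and Fetub at ZT0 was 0.00669. The interaction was called for 6 hepatokines and 4702 genes. Nrg4 had the fewest reads, 62 in its lowest library, so counting error weighs most there.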

Other observations

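Of 26 other liver-secreted hormone genes tested, 10 passed the photoperiod by ZT interaction, against 32.7% of all tested genes (edgeR, adjusted p under 0.05). Angptl4, an inhibitor of lipoprotein lipase, averaged 128 ± 9.76 CPM in SL livers and 35.3 ± 6.24 CPM in LL livers at ZT6, and 46.4 ± 3.54 CPM in SL livers and 103 ± 29.3 CPM in LL livers at ZT18 (SD, n = 4, interaction adjusted p = 5.79e-09). Manf, a secreted stress-response factor, went the other way, with 31.9 ± 8.57 CPM in SL livers and 82.9 ± 6.68 CPM in LL livers at ZT6, and 82.7 ± 12.7 CPM in SL livers and 41.2 ± 2.34 CPM in LL livers at ZT18 (9.98e-09). Igfbp4, which binds insulin-like growth factors, averaged 1470 ± 58.4 CPM in SL livers and 1196 ± 103 CPM in LL livers at ZT0 (1.95e-05). Tsku, the gene of the hepatokine tsukushi, averaged 79.1 ± 30.7 CPM in SL livers and 27.9 ± 13.2 CPM in LL livers at ZT6 (3.51e-04). Core clock and clock output genes passed the interaction in 18 of 19 cases, against 32.7% of all genes. Of the 19, 9 also passed the test at the offset of 12 h, against 0.519% of all genes.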
